A study of Mus musculus with 20 samples.

Results

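The 10 genes described here code for sensors and effectors of inflammasomes. They are Nlrp3, Nlrc4, Aim2, Mefv, Naip2, Naip5, Naip6, Pycard, Casp1 and Gsdmd, and they were chosen by name among the 24062 genes of the expression table, by a rule that uses no measured value, although earlier results of these data were known when they were chosen. All 10 were in the table, and all 10 reached the level needed for testing at both ages. RNA was sequenced from brain microglia of 20 male mice, each sample from the whole brain of 1 mouse. At 7 months 6 transgenic (mThy1-α-synuclein) mice and 4 wild-type controls were taken, and at 10 months 5 of each. mThy1-α-synuclein mice (genotype HEM in the labels, mThy1 below) carry human α-synuclein under the murine Thy-1 promoter, which is active in neurons, with the transgene on the X chromosome. Both genotypes are on the B6D2F1/J background, a hybrid of C57BL/6 and DBA/2, and the controls carry no transgene.

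An inflammasome is a protein complex that assembles in the cytosol of myeloid cells when a sensor meets its trigger. NLRP3 responds to disturbed ion balance, AIM2 to cytosolic DNA, pyrin (Mefv) to certain bacterial toxins, and the NAIP receptors bind bacterial flagellin or secretion-system proteins and then recruit NLRC4. Most of these sensors act through the adaptor ASC (Pycard), which gathers the protease caspase-1 (Casp1). Caspase-1 matures interleukin-1β and interleukin-18 and cleaves gasdermin D (Gsdmd), whose freed end forms pores in the plasma membrane and can kill the cell by pyroptosis. In microglia the NLRP3 inflammasome is the best studied, and α-synuclein aggregates are among its known triggers. The RNA levels given here say nothing of assembly or cleavage.

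Values are normalized counts, that is, read counts that the authors divided by a size factor for each mouse, separately at each age. Levels were therefore not compared between the ages, and age and processing round cannot be told apart in them. The reads counted on genes ranged from 33404096 to 77806399 per mouse, and the lowest value of any of the 10 genes in any mouse was 64.3 normalized counts. Fold changes are mThy1 over wild-type on the log2(value + 1) scale from limma's moderated test, with standard errors (SE), and p-values were adjusted by Benjamini-Hochberg over all tested genes of a comparison. A gene is said to have risen or fallen where its adjusted p was under 0.05. The paper's methods name CD11b beads for the selection of microglia and the labels name IBA1 beads. All 8 microglial markers examined were present, with summed levels between 1579400 and 2094800 normalized counts per mouse. No marker of another cell type was at 0 in all mice, and the summed levels of 10 neutrophil markers ranged from 73025 to 473480. Of these markers, Csf3r lay between 22932 and 38776 in every mouse, and it is a large part of the lowest sums.

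The 3 NAIP genes lie side by side on the minus strand of chromosome 13 and are near-copies of one another, which bears on how their reads can be told apart. In the mm10 (GRCm38) genome with the GENCODE M21 annotation, Naip2 spans chr13:100144063-100202092, Naip5 chr13:100211739-100246323 and Naip6 chr13:100281121-100317674. The first 90 coding bases of each are shown 5′ to 3′, with capitals at the 30 positions where the 3 genes are not all the same. They were read at chr13:100189309-100189398 for Naip2, in its exon 2, at chr13:100246110-100246199 for Naip5 and at chr13:100316462-100316551 for Naip6, both in exon 1.
Naip2: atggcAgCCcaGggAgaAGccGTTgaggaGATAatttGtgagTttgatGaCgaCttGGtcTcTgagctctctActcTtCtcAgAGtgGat
Naip5: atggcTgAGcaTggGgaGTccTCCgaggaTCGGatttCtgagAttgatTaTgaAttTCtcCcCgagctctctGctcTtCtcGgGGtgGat
Naip6: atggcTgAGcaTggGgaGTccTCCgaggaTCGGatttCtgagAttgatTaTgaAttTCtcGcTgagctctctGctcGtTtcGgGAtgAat
Over the whole coding sequence, Naip5 and Naip6 were identical at 97% of aligned bases, Naip2 and Naip5 at 90% and Naip2 and Naip6 at 89.7%. Of all stretches of 150 bases in its transcript, Naip5 shared 8.25% exactly with Naip1, Naip3 or Naip6, Naip6 shared 1.92% and Naip2 shared 0.57%. Naip2 had no such stretch in common with Naip5 or Naip6, whereas Naip5 and Naip6 had 122. How reads that map to several places were counted is not stated in the sources used here, so Naip5 and Naip6 values are less certain than those of Naip2. Outside this family, Pycard shared 9.20% of its stretches, all with Gm45205, a gene of the opposite strand that overlaps it over 485 bases and is not in the table. The other 6 genes shared none.

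Across the 10 genes, 7 were higher and 3 lower in mThy1 mice at 7 months, and 2 were higher and 8 lower at 10 months, counting the sign of the fold change alone, beside 50.2% and 49.5% of all tested genes above 0. The test passed 1 of the 10 at 7 months (Naip2, higher), where it passed 4.93% of all 13887 tested genes. At 10 months it passed 2 of the 10 (Aim2, higher, and Mefv, lower), where it passed 7.67% of 13627 genes. The median log2 fold change of the 10 was 0.13 at 7 months and -0.07 at 10 months, and the medians of all tested genes were 0.00094 and -0.0026. An unadjusted p under 0.05 was reached by 2 of the 10 at 7 months and by 5 at 10 months, beside 21.3% and 23.5% of all tested genes. The genotypes did not overlap for 1 gene at each age, Naip2 at 7 months and Mefv at 10 months, beside 7.53% and 7.27% of all tested genes. The difference of the effects is the genotype effect at the later age less that at the earlier age. Age and processing round cannot be told apart in this difference, and the part of other cell types in it was not tested. By sign the difference was negative in 9 of the 10 and above 0 in 1, beside 50.1% above 0 among all 14457 tested genes. Its median was -0.18, beside 0.00080 over all genes.

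**Figure D1:**
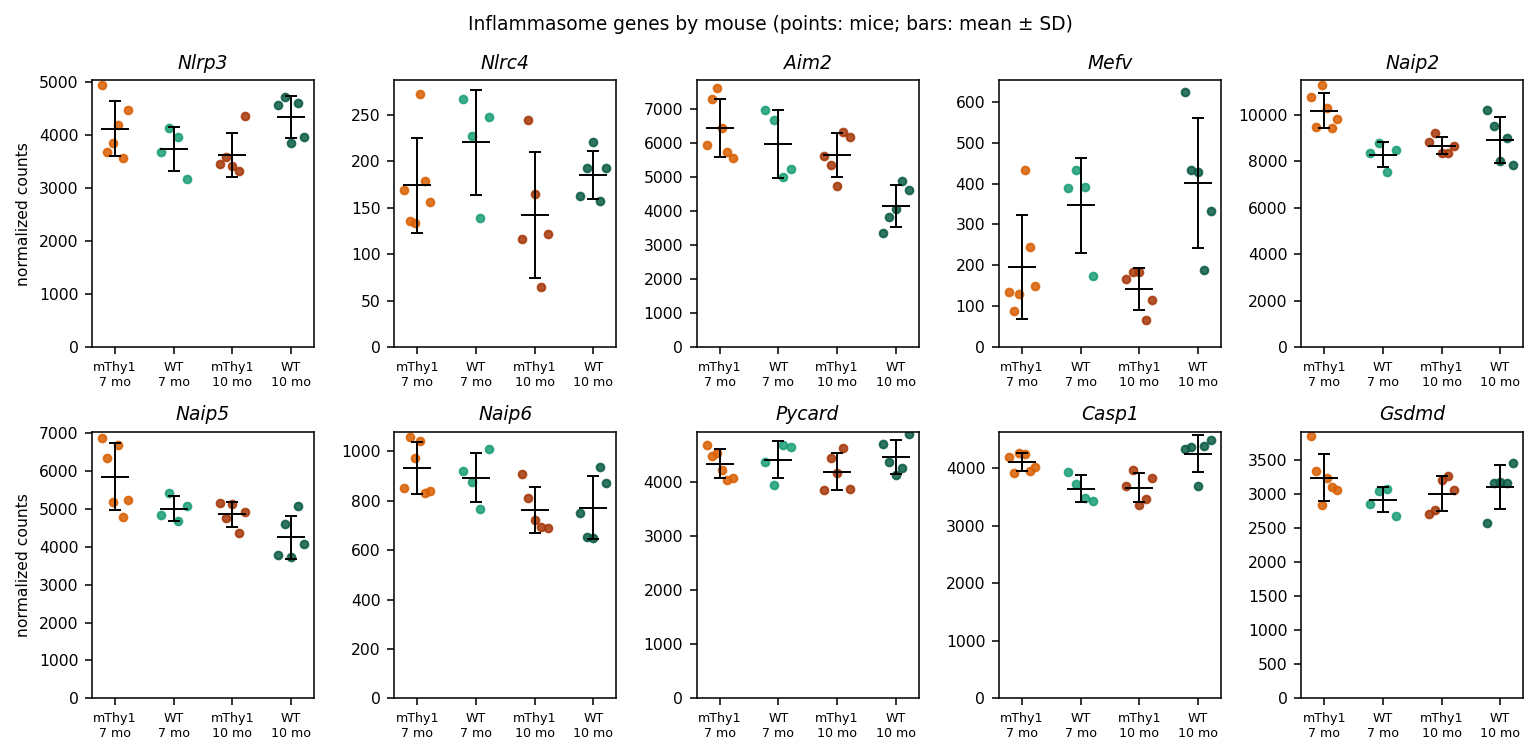
Normalized counts (vertical axes, each starting at 0) of the 10 inflammasome genes in every mouse, by genotype and age; points are mice, and bars give the mean ± SD of 6, 4, 5 and 5 mice. Naip2 at 7 months and Mefv at 10 months are the genes whose genotypes do not overlap within an age.

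Naip2 rose in mThy1 mice at 7 months. NAIP2 binds the inner rod protein of bacterial type III secretion systems. The 6 mThy1 mice had between 9414 and 11296 normalized counts, with a median of 10055. The wild-type mice had 8344, 8771, 7514 and 8472. Every mThy1 mouse lay above every wild-type mouse, and the means were 10179 ± 755 (SD, n = 6) and 8275 ± 538 (SD, n = 4). The log2 fold change was 0.30 (SE 0.074), a 1.23-fold level, with an adjusted p of 0.0298 in limma. Leaving out mice one at a time gave adjusted p-values from 0.0267 to 0.101, and the call was lost without mThy1 replicate 1 or 3 or wild-type replicate 1, 3 or 4.

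Markers of other cell types also differed between the genotypes at 7 months. In mThy1 mice 4 of 6 neuron markers fell, with a median log2 fold change of -1.97, as did 3 of 6 oligodendrocyte markers (median -0.86), 2 of 5 endothelial markers (median -0.55), 2 of 6 astrocyte markers (median -0.93, and 1 rose) and 2 of 7 tested T, NK and B cell markers (median -0.95). The summed neuron markers lay at 193 to 352 normalized counts in mThy1 and 496 to 1089 in wild-type mice, and the oligodendrocyte sums at 7845 to 10167 and 12702 to 18093, so neither overlapped. The microglial sums, at 1790300 to 2094800 and 1715500 to 1942100, overlapped. The part of these cells in the 7-month results was not tested, and in RNA of a whole sample fewer cells of a type and less RNA per cell cannot be told apart.

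At 10 months Naip2 was at 8812, 9221, 8347, 8336 and 8654 in mThy1 mice and at 10197, 9497, 8014, 9013 and 7824 in wild-type mice. The mThy1 values lay inside the wild-type range. The log2 fold change was -0.03 (SE 0.077, 95% confidence interval -0.20 to 0.13, adjusted p = 0.841 in limma). The difference of the effects between the ages was -0.33 (SE 0.11, adjusted p = 0.0606), which did not pass the test.

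Naip5 and Naip6, which bind flagellin, gave no call at either age. Naip5 in mThy1 mice at 7 months ranged from 4767 to 6868 with a median of 5790. Wild-type mice had 4828, 5424, 4679 and 5061. The groups overlapped, with 3 of 6 mThy1 mice above all wild-type mice, and the log2 fold change was 0.21 (SE 0.10, adjusted p = 0.243). At 10 months Naip5 was at 5150, 4758, 5122, 4346 and 4904 in mThy1 and at 3769, 4587, 3723, 5062 and 4065 in wild-type mice. Here 2 of 5 mThy1 mice lay above every wild-type mouse, and the log2 fold change was 0.20 (SE 0.088, unadjusted p = 0.0363, adjusted p = 0.176 in limma). Naip6 ranged from 829.4 to 1059 in mThy1 and from 768 to 1009 in wild-type mice at 7 months. At 10 months its ranges were 689 to 907 and 650 to 935. Its log2 fold changes were 0.06 (SE 0.11, adjusted p = 0.785) and -0.01 (SE 0.12, adjusted p = 0.979).

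The start regions of Naip2 and Naip5 are shown because these neighbouring genes share stretches of sequence there. At 7 months both genes were higher in mThy1 mice by sign, with log2 fold changes of 0.30 (SE 0.074) and 0.21 (SE 0.10). Only Naip2 passed the test, and whether the genotype effect differed between these genes was not tested. The start regions are the RefSeq promoter windows of GRCm38.p6, 250 bases before to 50 after the start, at chr13:100202073-100202372 and chr13:100247287-100247586, minus strand. Capitals mark runs of at least 15 bases that the pair has in common, 99 bases in all with a longest run of 34.
Naip2 promoter: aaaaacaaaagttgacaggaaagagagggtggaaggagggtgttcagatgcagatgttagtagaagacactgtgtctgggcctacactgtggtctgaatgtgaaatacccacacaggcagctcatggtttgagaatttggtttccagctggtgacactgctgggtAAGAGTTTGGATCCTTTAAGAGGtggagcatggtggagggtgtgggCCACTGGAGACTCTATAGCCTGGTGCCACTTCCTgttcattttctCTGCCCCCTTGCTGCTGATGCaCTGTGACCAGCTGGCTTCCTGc
Naip5 promoter: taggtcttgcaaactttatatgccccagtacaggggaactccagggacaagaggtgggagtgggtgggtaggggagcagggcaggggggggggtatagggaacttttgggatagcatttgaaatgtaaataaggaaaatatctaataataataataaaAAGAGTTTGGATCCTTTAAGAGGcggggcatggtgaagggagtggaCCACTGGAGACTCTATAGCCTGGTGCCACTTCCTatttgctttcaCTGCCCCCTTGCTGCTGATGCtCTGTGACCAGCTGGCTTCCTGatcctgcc
The RefSeq start of Naip5 used for this window lies upstream of the GENCODE gene model given above. The shared runs lie in the downstream part of both windows.

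Aim2 rose in mThy1 mice at 10 months. AIM2 binds double-stranded DNA through its HIN domain. The mThy1 mice had 5621, 5355, 4724, 6311 and 6173 normalized counts. The wild-type mice had 3350, 3834, 4061, 4869 and 4607. In 4 of 5 mThy1 mice the level was above every wild-type mouse, and mThy1 replicate 3 was below the highest wild-type mouse, so the groups overlapped. The means were 5637 ± 643 and 4144 ± 607 (SD, n = 5 each), and the log2 fold change was 0.45 (SE 0.10), a 1.36-fold level with an adjusted p of 0.0210 in limma. With mice left out one at a time the adjusted p lay between 0.00839 and 0.0571, and the call was lost without mThy1 replicate 5 or wild-type replicate 2. At 7 months Aim2 ranged from 5550 to 7629 in mThy1 mice with a median of 6195, and was at 6977, 6667, 4995 and 5231 in wild-type mice. The groups overlapped, and the log2 fold change was 0.11 (SE 0.12, adjusted p = 0.608). The difference between the ages was 0.34 (SE 0.17, adjusted p = 0.238), so a difference in the genotype effect between the ages was not shown.

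Among genes near Aim2, 4 of the 15 tested within 1 Mb of it passed the test at 10 months, beside 7.67% of all tested genes. At 7 months 1 of 14 passed, Cadm3, which was lower (adjusted p = 0.0126), beside 4.93% of all tested genes. The 4 at 10 months were Ifi202b and Slamf8, which rose, and Tagln2 and Ifi205, which fell. Ifi202b, at chr1:173962568-173982744, codes for a DNA-binding HIN protein of the same family as AIM2, one without a pyrin domain, that is known to counter AIM2. The 5 mThy1 mice at 10 months had 188, 202, 112, 4147 and 2238 normalized counts of Ifi202b, and none of the 5 wild-type mice had a read. No fold is given against a group at 0, and the adjusted p was 0.000441 in limma. At 7 months the mThy1 mice had 386, 4399, 7292, 2370, 281 and 24.2, and the wild-type mice 3680, 53.0, 0 and 12.8. High and low mice occurred in both genotypes at that age, and the test gave an adjusted p of 0.369.

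The order of the mice was alike for Aim2 and Ifi202b. At 7 months the ranks of the 6 mThy1 mice were the same for both genes, as were those of the 4 wild-type mice. At 10 months mThy1 replicates 4 and 5 ranked 1 and 2 of 5 for both, and the wild-type mice, all at 0 for Ifi202b, included the 4 lowest Aim2 levels of that age. The values are given mouse by mouse because Ifi202b falls into separate clusters, and no correlation of this pair is quoted. In the search for genes most like Aim2, described below, the closest were Plekha6, Erlec1 and Egflam (r = 0.775, 0.774 and 0.765). Ifi202b was not among them. It had no spread in the wild-type mice at 10 months, all at 0, and only the closest genes were kept. Its absence from them therefore says nothing of how this pair varied. Alleles of this region were not examined here, and its part in the Aim2 difference was not tested. Slamf8, a receptor of the SLAM family on chromosome 1, had log2 fold changes of 0.79 at 7 months (SE 0.32, adjusted p = 0.192) and 0.73 at 10 months (SE 0.20, adjusted p = 0.0462). Its highest level at 10 months, 2732, was in mThy1 replicate 4, and its highest at 7 months, 3847, in mThy1 replicate 3, the mice with the most Ifi202b of each age. Ifi205 had a log2 fold change of -0.83 at 10 months (SE 0.23, adjusted p = 0.0492), and Ifi204, a further HIN gene of the cluster, had -1.03 (SE 0.42, adjusted p = 0.174). Genes of this cluster are alike in sequence, and reads may be shared among them.

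**Figure D2:**
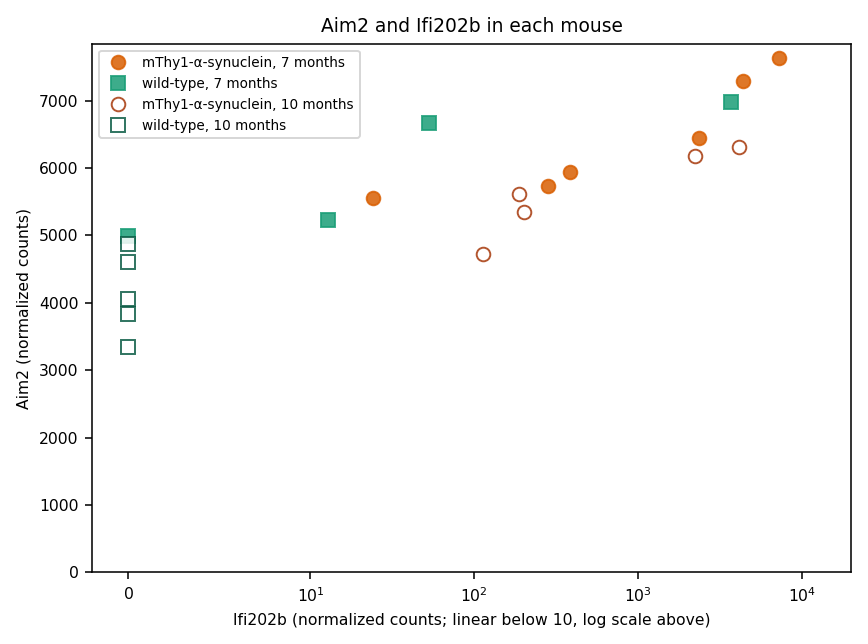
Aim2 against Ifi202b in each of the 20 mice, in normalized counts; the horizontal axis is linear below 10 and logarithmic above, filled symbols are 7 months and open symbols 10 months. All 5 wild-type mice of 10 months sit at 0 Ifi202b with Aim2 between 3350 and 4869. Among the mice of 7 months, the one with the most Ifi202b, 7292, also has the most Aim2, 7629.

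The Aim2 promoter is shown as the start region of the gene that rose at 10 months. It is the RefSeq window of GRCm38.p6 at chr1:173420354-173420653, plus strand, which lies inside the longer GENCODE gene model (chr1:173350879-173466040), and capitals mark its 2 copies of GAGGAA, the core of binding sites of the myeloid factor PU.1.
Aim2 promoter: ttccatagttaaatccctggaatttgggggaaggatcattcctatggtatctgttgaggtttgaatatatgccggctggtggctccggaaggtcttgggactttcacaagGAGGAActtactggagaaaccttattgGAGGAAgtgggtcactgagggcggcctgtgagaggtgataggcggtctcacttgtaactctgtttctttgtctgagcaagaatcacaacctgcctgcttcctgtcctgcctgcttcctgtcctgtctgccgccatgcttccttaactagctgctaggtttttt
Of the 10 genes 9 matched a promoter entry, all but Gsdmd, and GAGGAA on either strand was in a window of 4 of them (Nlrp3, Aim2, Pycard and Casp1). It was in 28.3% of all 32851 promoter windows of this length. Patterns for 4 other kinds of site were searched on both strands in the same windows. They were GGAA and GAAA with any 2 bases between them (composite sites of PU.1 and IRF8), a pair of GAAA with any 2 bases between them (interferon response), GGG and TTTCC with any 2 bases between them (NF-κB) and TTCNNNGAA (STAT). No window of the 9 genes held any of them, and 2.72%, 3.44%, 1.63% and 8.30% of all windows did. The first and the second of these can overlap.

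Mefv fell in mThy1 mice at 10 months, with the largest fold change among the 10 genes. Pyrin is best known from familial Mediterranean fever and is made mainly in neutrophils and monocytes. The mThy1 mice had 166, 183, 183, 65.3 and 114 normalized counts. The wild-type mice had 624.8, 433, 429, 190 and 334. Every mThy1 mouse lay below every wild-type mouse, although the lowest wild-type mouse, replicate 4, was only just above the highest mThy1 mouse. The means were 142 ± 51.4 and 402 ± 159 (SD, n = 5 each), and the log2 fold change was -1.49 (SE 0.35), a 2.80-fold lower level with an adjusted p of 0.0270 in limma. With mice left out one at a time the adjusted p lay between 0.00419 and 0.0636. The call was lost without mThy1 replicate 5 or wild-type replicate 1, 2, 3 or 5.

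At 7 months Mefv ranged from 88.8 to 432 in mThy1 mice, with a median of 142. Wild-type mice had 388, 433, 392 and 173. The groups overlapped, with 4 of 6 mThy1 mice below all wild-type mice, and the log2 fold change was -0.94 (SE 0.42, adjusted p = 0.234). Without mThy1 replicate 4, the highest of its group, it was -1.21 with an adjusted p of 0.0372. The difference between the ages was -0.55 (SE 0.59, adjusted p = 0.636).

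Markers of several other cell types were also lower in mThy1 mice at 10 months. Of the 10 neutrophil markers, all 10 were lower in mThy1 mice at 10 months and 3 passed the test, with a median log2 fold change of -1.04. Their sum ranged from 97765 to 228160 normalized counts in mThy1 and from 191060 to 433290 in wild-type mice at that age. All 5 monocyte markers were lower too, 2 of them past the test, with a median of -0.84. All 6 border macrophage markers were lower and 4 passed the test (median -0.49), as were all 6 tested T, NK and B cell markers, of which 4 passed (median -1.18). Of the 8 microglial markers 3 rose, and their median was 0.15. At 7 months the neutrophil sums ranged from 73025 to 473480 and from 103920 to 317820, and 9 of 10 markers were lower, with a median of -0.47. Within groups, mThy1 replicate 4 and wild-type replicate 4 at 10 months and wild-type replicate 4 at 7 months were the lowest of their group for both Mefv and the neutrophil sum. In mThy1 mice at 7 months, replicates 1 to 6 ranked 4, 6, 5, 1, 2 and 3 for Mefv, where 1 is the highest. Their ranks for the neutrophil sum were 4, 5, 6, 2, 1 and 3. mThy1 replicate 5 at 10 months had the highest neutrophil sum of its group and the second lowest Mefv, 114. Among wild-type mice at 10 months, replicate 1 had the highest Mefv, 624.8, and ranked 4 of 5 for the neutrophil sum. Replicate 3 of that group had the highest sum and ranked 3 of 5 for Mefv. The part of these cells in the Mefv difference and in the other 10-month results was not tested.

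**Figure D3:**
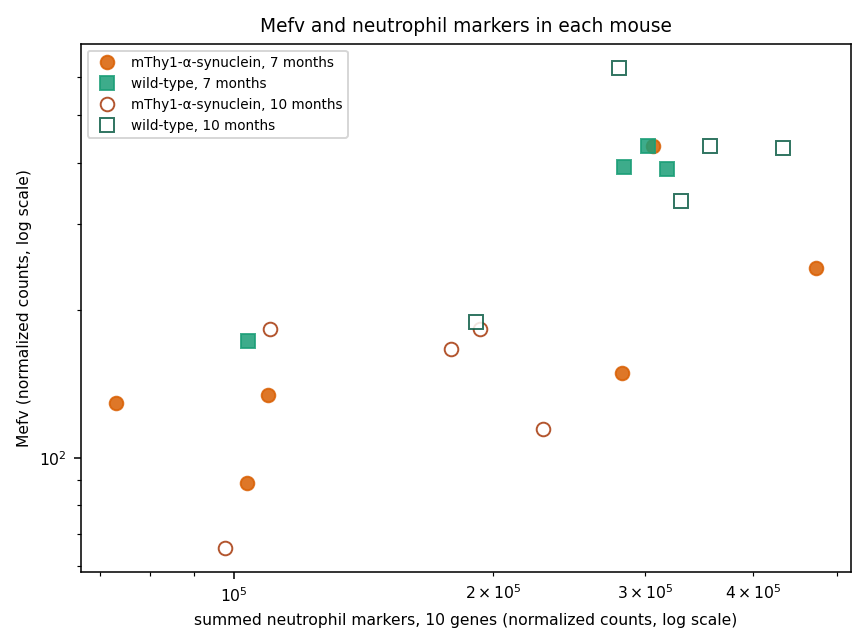
Mefv against the summed level of 10 neutrophil markers in each of the 20 mice, both in normalized counts on logarithmic axes; filled symbols are 7 months and open symbols 10 months. At 10 months the mThy1 mice lie at 65.3 to 183 Mefv and the wild-type mice at 190 to 624.8, and the neutrophil sums of the genotypes overlap between 191060 and 228160.

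Nlrp3 did not pass the test at either age. In mThy1 mice at 7 months it ranged from 3564 to 4936 with a median of 4019. Wild-type mice had 3670, 4124, 3956 and 3169. The groups overlapped, and the log2 fold change was 0.14 (SE 0.10, adjusted p = 0.450). At 10 months the mThy1 mice had 3439, 3581, 3418, 3306 and 4343 and the wild-type mice 4559, 4704, 3842, 4590 and 3949. The 4 mThy1 mice other than replicate 5 lay below every wild-type mouse. The log2 fold change was -0.26 (SE 0.086, 95% confidence interval -0.45 to -0.08), with an unadjusted p of 0.00873 and an adjusted p of 0.0804 in limma. Without replicate 5 the adjusted p was 0.0330, the lowest of a range up to 0.174 over mice left out. The difference of the effects was -0.40 (SE 0.14, adjusted p = 0.0796), and without that mouse the adjusted p was 0.0362.

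Nlrc4, which couples the NAIP receptors to caspase-1, did not pass the test at either age. At 7 months it ranged from 134 to 273 in mThy1 mice with a median of 163, and wild-type mice had 267, 228, 139 and 248. At 10 months the mThy1 mice had 117, 245, 165, 64.3 and 121 and the wild-type mice 163, 193, 221, 157 and 193. The groups overlapped at both ages. The log2 fold changes were -0.34 (SE 0.23, adjusted p = 0.426) and -0.50 (SE 0.28, adjusted p = 0.302), with a 95% confidence interval of -1.09 to 0.10 at 10 months.

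Casp1 differed between the ages in its genotype effect, although neither age alone passed the test. At 7 months the 6 mThy1 mice had between 3913 and 4267 normalized counts with a median of 4103. The wild-type mice had 3938, 3726, 3487 and 3419. In 5 of 6 mThy1 mice Casp1 was above every wild-type mouse, with a log2 fold change of 0.17 (SE 0.067, unadjusted p = 0.0217, adjusted p = 0.154). At 10 months the mThy1 mice had 3694, 3961, 3365, 3461 and 3821, and the wild-type mice 4335, 4357, 3688, 4388 and 4486. Here 4 of 5 wild-type mice lay above every mThy1 mouse, the exception being replicate 3, and the log2 fold change was -0.21 (SE 0.072, unadjusted p = 0.00965, adjusted p = 0.0859). The effect at 10 months minus that at 7 months was -0.39 (SE 0.094, 95% confidence interval -0.58 to -0.19, adjusted p = 0.0159). This test passed 1 of the 10 genes, beside 6.36% of all 14457 genes in that comparison. Over mice left out one at a time the adjusted p stayed between 0.00614 and 0.0357, and over the other alternatives between 0.00359 and 0.0477.

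Pycard and Gsdmd, the adaptor and the pore former, gave no call. Pycard lay at 4028 to 4674 in mThy1 and 3941 to 4684 in wild-type mice at 7 months, and at 3846 to 4627 and 4120 to 4876 at 10 months. Its log2 fold changes were -0.02 (SE 0.074, 95% confidence interval -0.18 to 0.13) and -0.09 (SE 0.073, -0.25 to 0.06). Strand was not stated for the counting, so reads of the overlapping Gm45205 cannot be told from those of Pycard. Gsdmd lay at 2845 to 3857 and 2681 to 3078 at 7 months, and at 2710 to 3273 and 2580 to 3462 at 10 months. The log2 fold changes were 0.15 (SE 0.085, adjusted p = 0.333) and -0.05 (SE 0.085, adjusted p = 0.794). In 4 of 6 mThy1 mice at 7 months Gsdmd was above every wild-type mouse, and at 10 months no mThy1 mouse lay outside the wild-type range.

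**Figure D4:**
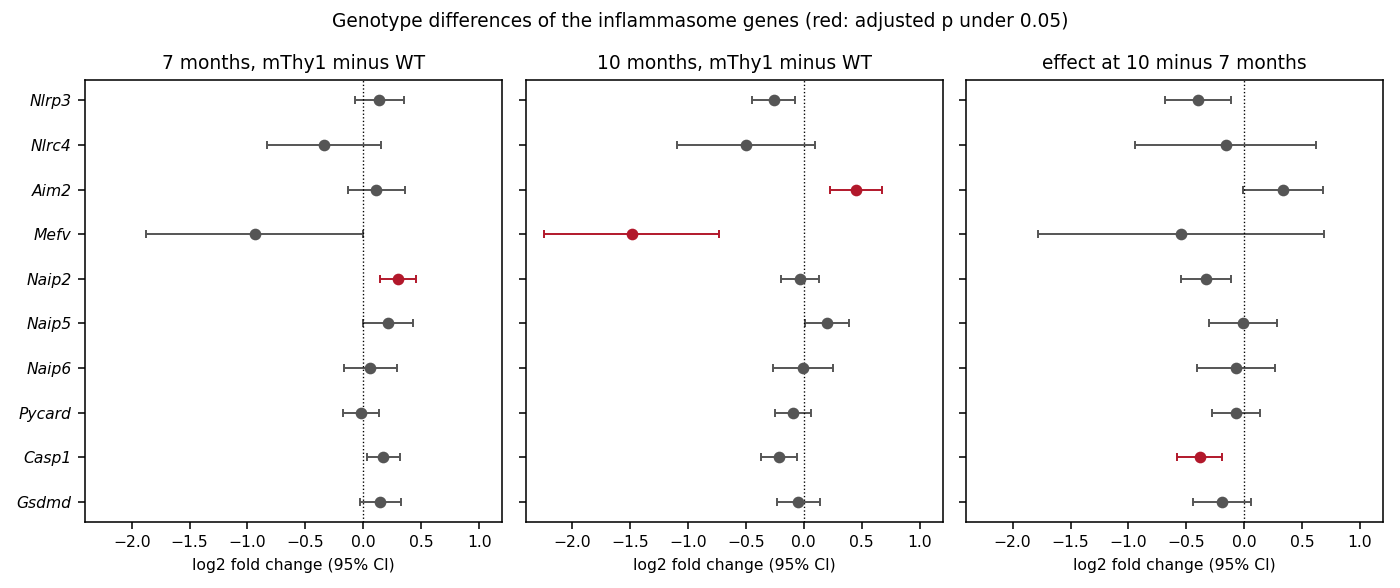
Log2 fold changes (mThy1 minus wild-type) of the 10 genes at 7 months and at 10 months, and the difference of the effects, as points with 95% confidence intervals from limma; red marks an adjusted p under 0.05. Naip2 is red at 7 months (0.30), Aim2 (0.45) and Mefv (-1.49) at 10 months, and Casp1 in the difference of the effects (-0.39).

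Levels of different genes were compared per kilobase of exon. Casp1 was the highest in all 4 groups, from 2433 ± 158 normalized counts per kilobase in wild-type mice at 7 months (SD, n = 4) to 2840 ± 214 in wild-type mice at 10 months (SD, n = 5), and its mice did not overlap those of Naip2, the next gene. Naip2 and Aim2 followed, with overlapping mice, in the groups other than wild-type at 10 months. In that group Gsdmd (1308 ± 136) and Aim2 (1184 ± 173) came next after Naip2, and their mice overlapped. Gsdmd, Pycard, Naip5 and Nlrp3 formed a middle class between 815 and 1365 per kilobase, in which neighbours in the order overlapped, except Pycard and Naip5 in mThy1 mice at 10 months. Naip6, Mefv and Nlrc4 were the lowest 3 genes in every group, at 29.6 to 137 per kilobase, and did not overlap the gene above them. Nlrc4 was last throughout, at 29.6 ± 14.04 to 45.9 ± 11.7 per kilobase.

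From a list of 40 other inflammasome genes, 39 were in the table. The list was written with earlier results of these mice known. At 7 months 37 were tested and 1 rose, and at 10 months 36 were tested, of which 1 rose and 5 fell. The test passed 2.23% of all genes as higher and 2.70% as lower at 7 months, and 3.88% and 3.79% at 10 months. The median log2 fold changes of the list were 0.04 and -0.10. In the difference of the effects 37 were tested, of which 1 was higher and 3 lower past the test, with a median of -0.28, beside 3.74% and 2.62% of all genes.

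Among triggers and regulators, Kcnk6, the potassium channel TWIK2 that lets potassium out of the cell and so favours NLRP3, rose at 7 months. The 6 mThy1 mice lay between 13623 and 18308, above the wild-type values of 11569, 12189, 11447 and 12366. The log2 fold change was 0.47 (SE 0.083, adjusted p = 0.00457), and it stayed past the test in all alternatives (adjusted p 9.45e-06 to 0.0273). At 10 months it was 0.05 (adjusted p = 0.791), and the difference was -0.42 (SE 0.12, adjusted p = 0.0409). Nek7, a kinase that NLRP3 needs for its assembly, rose at 10 months, at 13691 to 16305 in mThy1 and 12115 to 13291 in wild-type mice. Its log2 fold change was 0.24 (SE 0.065, adjusted p = 0.0375) at 10 months and -0.12 (adjusted p = 0.361) at 7 months, a difference of 0.37 (SE 0.096, adjusted p = 0.0239).

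Panx1 and Dpp9 fell at 10 months and also differed between the ages. Panx1, a channel that releases ATP, lay at 218 to 297 in mThy1 and 280 to 529 in wild-type mice at 10 months, a log2 fold change of -0.58 (SE 0.16, adjusted p = 0.0427). Dpp9, a peptidase that restrains NLRP1, lay at 1328 to 1531 and 1578 to 2143, a log2 fold change of -0.33 (SE 0.084, adjusted p = 0.0298). Their differences between the ages were -0.70 (adjusted p = 0.0471) and -0.40 (adjusted p = 0.0490). Irf1, an interferon-regulated transcription factor that drives guanylate-binding proteins, fell at 10 months by 0.36 on the log2 scale (SE 0.10, adjusted p = 0.0434). These calls lay close to the threshold of 0.05. Leaving out 1 mouse at a time, the Panx1, Nek7, Dpp9 and Irf1 calls at 10 months were lost for 7, 8, 6 and 8 of the 10 mice, with adjusted p-values up to 0.101, 0.0890, 0.0702 and 0.102. The differences between the ages were lost for 15, 1 and 17 of the 20 mice for Panx1, Nek7 and Dpp9, and for 14 of them for Kcnk6.

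Among the proteases and products Il1b and Il1rn fell at 10 months. Il1b, the precursor of interleukin-1β, was at 9990, 9131, 8788, 5343 and 9482 in mThy1 and at 35795, 26530, 21044, 12209 and 21365 in wild-type mice, with no overlap. The log2 fold change was -1.40 (SE 0.28, adjusted p = 0.0222), and the call was lost without wild-type replicate 2 (adjusted p = 0.0545) or 5 (adjusted p = 0.0511). Il1rn, the receptor antagonist of interleukin-1, fell by 1.12 on the log2 scale (SE 0.20, adjusted p = 0.00785), at 393 to 698 in mThy1 and 828 to 1572 in wild-type mice. Both genes are also expressed by neutrophils and monocytes, whose markers were lower in the same mice as given beside Mefv, and the part of these cells was not tested. Il18 had log2 fold changes of 0.07 and -0.10 (adjusted p = 0.682 and 0.633). Casp4, the caspase that senses lipopolysaccharide, had 0.08 and -0.21 (adjusted p = 0.713 and 0.141). P2rx7, the ATP receptor upstream of NLRP3, had 0.32 at 7 months (SE 0.093, adjusted p = 0.0597) and 0.04 at 10 months, and Irf8, a regulator of microglial identity and of Naip genes, had 0.23 (adjusted p = 0.164) and -0.06.

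**Figure D5:**
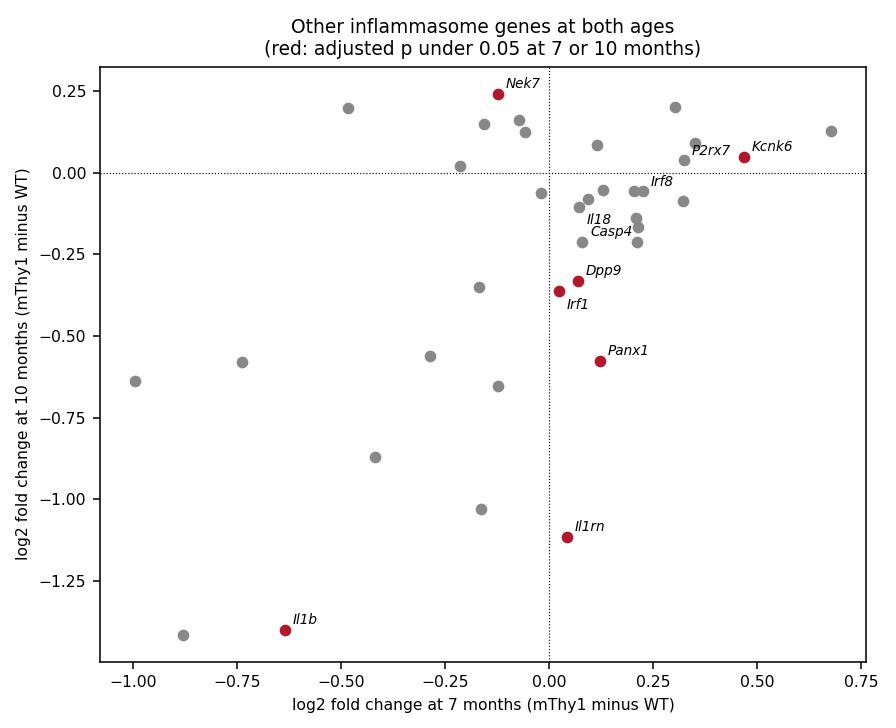
Log2 fold changes (mThy1 minus wild-type) of 36 other inflammasome genes at 7 months (horizontal) and 10 months (vertical), 1 point a gene; red marks an adjusted p under 0.05 at either age. Kcnk6 stands at 0.47 and 0.05, and Il1b, Il1rn and Panx1 are the lowest red points at 10 months (-1.40, -1.12 and -0.58).

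The genes that varied most like each of the 10 between mice were sought among 14457 genes, by Pearson correlation of log2 values centred on the group means over the 20 mice, as a description. Centring removes what all mice of a group share. Such correlations still carry differences between the mice within a group, which can include cell makeup and handling. Mefv was most like Pira6 (r = 0.947) and Naip5 most like Gfm2 (r = 0.919). Naip2 was most like Hgf (r = 0.873), Casp1 most like Apobec1 (r = 0.859) and Nlrp3 most like Nrde2 (r = 0.843). For Aim2 the closest gene was Plekha6 (r = 0.775), for Nlrc4 Eml6 (r = 0.810), for Naip6 2610002M06Rik (r = 0.848), for Pycard Phb (r = 0.827) and for Gsdmd Uckl1 (r = 0.884). None of the 10 was the closest gene of another. Among the 10 themselves the highest correlation was that of Nlrc4 and Mefv (r = 0.569), followed by Naip2 and Casp1 (r = 0.513), and the lowest was that of Naip2 and Gsdmd (r = -0.492).

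Within 1 Mb of Mefv, at chr16:3707218-3718097, 1 of 19 tested genes passed at each age, Adcy9 at 7 months and Coro7 at 10 months, both higher. The shares over all tested genes were 4.93% and 7.67%. Within 1 Mb of Naip2, 1 of 22 passed at 7 months, Map1b, which was lower. At 10 months the lowest adjusted p among the 22 was 0.0612. Within 1 Mb of Casp1, at chr9:5298517-5307265, the lowest adjusted p among 7 tested genes was 0.102 over both ages.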

How the data were processed

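The authors trimmed the paired reads with Trim Galore 0.6.7, mapped them to mm10 with HISAT2 2.2.1, counted them per gene with featureCounts and normalized with DESeq2 1.44.0 (tools and versions from the submitters' processing notes). The deposited signal values are gene counts divided by a size factor per mouse, recomputed here within each age to a relative difference of 8.5e-12 at most. Multiplying the values by these factors gave whole reads (tolerance 0.02) in 100% of values under 50 normalized counts. In 1 mouse (mThy1 replicate 5 at 10 months) the share was also 100%, but its size factor, 0.997, was close to 1. The check says less there. Which annotation release and strand setting were used, and how multimapping reads were handled, is not given in the sources used here. There were 0 columns of samples outside this series.

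Genes were tested with limma 3.58.1 (trend, robust) in R 4.3.3 on log2(value + 1), for genes with a value of 10 or more in 4 mice (7 months), 5 mice (10 months) or 4 of 20 mice (difference of the effects). Alternatives were pseudocounts of 0.5 and 5, no filter, a minimum of 50, TMM scaling, edgeR 4.0.16 and DESeq2 1.42.0 on recovered reads, each mouse left out and a replicate block. The fits were tested on simulated data. The members and gene lists were chosen with earlier results of these data known. The text names all members, listed genes past the test, 5 listed genes in any case, the gene most like each member and called neighbours within 1 Mb. Ifi204 is a listed gene named outside this rule, after its values were seen. Transcript windows used GENCODE M21, and Python 3.11.15 with Biopython 1.88 and matplotlib 3.10.9 was used for sequences and plots.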

Additional observations from a re-analysis of the deposited data

Results flagged for a closer look

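In 40 checks of a gene within a group, the highest or the lowest mouse stood apart from the others by Dixon's criterion in 4. Chance flags about 1 in 20 groups. Nlrp3 in mThy1 replicate 5 at 10 months was at 4343 normalized counts, and the next mouse of its group was at 3581. Nlrc4 in mThy1 replicate 4 at 7 months was at 273, with the next mouse at 179. Mefv in wild-type replicate 4 at 7 months was at 173 and the next lowest mouse at 388. Casp1 in wild-type replicate 3 at 10 months was at 3688 and the next lowest at 4335. These values are given with their comparisons, and no mouse was left out of the reported fits.

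The genotype effect on Casp1 differed between the ages by the interaction test, with a log2 difference of -0.39 (10 months minus 7 months, adjusted p = 0.0159 in limma). At 7 months 5 of 6 mThy1 mice lay above all wild-type mice, and at 10 months 4 of 5 wild-type mice lay above all mThy1 mice.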

How the results depend on the processing

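Over the 3 comparisons and all alternatives, 598 of the recomputed values of the 10 genes kept their direction and their side of the threshold, 13 lost a call, 7 gained one and 22 changed sign. The Casp1 difference between the ages was called in every alternative run. The sign changes were in genes that were not called, namely Naip6, Pycard, Naip2 at 10 months, and Nlrc4, Naip5 and Naip6 in the difference of the effects. The lowest value of a member in any mouse was 64.3 normalized counts, so depth set no limit of 0 here.

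DESeq2 on the recovered reads called 1158 genes at 7 months (684 in limma) and 1695 at 10 months (1045 in limma), and 2 of the 10 members in the difference of the effects, where Naip2 joined Casp1 (-0.34, adjusted p = 0.0354, range over alternatives 0.0303 to 0.127). At 7 months it called 4 of the other inflammasome genes, P2rx7 (adjusted p = 0.0220) among them. Without a filter on low values 19145 genes were tested in the difference of the effects and 1 of the other inflammasome genes was called, and at 10 months Panx1 and Irf1 had adjusted p-values of 0.0566 and 0.0576. The causes were not tested.

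Mice are numbered within groups in the labels, which do not say that a shared number marks a pair. The correlation of the deviations of equally numbered mice lay between -0.134 and 0.0995 and did not exceed 0.1 in any pair. With so few mice in a group this cannot exclude a pairing. The reported fits treat the mice as unpaired. In a fit with the replicate number as a block, the unpaired mThy1 replicates 5 and 6 at 7 months carry no weight. It called 414 genes at 7 months and 482 in the difference of the effects. With the block 0 members were called at 7 months in limma, 2 having an unadjusted p under 0.05 (edgeR and DESeq2 without the block called 1), and Naip2 had a log2 fold change of 0.34 (adjusted p = 0.0802) and Pycard 0.026. Of the other inflammasome genes, 0 were called in the difference of the effects with this block in limma, 9 having an unadjusted p under 0.05 (edgeR without the block called 4 and DESeq2 called 5), and at 10 months Nek7 (adjusted p = 0.0911) and Dpp9 (0.0596) lost their calls.

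Leaving out each mouse in turn gave 280 to 860 called genes at 7 months (280 without wild-type replicate 1), 489 to 1232 at 10 months (489 without wild-type replicate 2) and 618 to 1097 in the difference of the effects (618 without wild-type replicate 1 at 10 months). Members called ranged from 0 to 2, from 0 to 2 and from 1 to 2. In genes that changed sign, the log2 values at 7 months ranged from -0.0099 to 0.12 for Naip6 and from -0.075 to 0.0083 for Pycard. At 10 months they ranged from -0.077 to 0.018 for Naip2, from -0.071 to 0.065 for Naip6 and from -0.012 to 0.088 for P2rx7. In the difference of the effects they ranged from -0.39 to 0.090 for Nlrc4, from -0.067 to 0.055 for Naip5 and from -0.13 to 0.0045 for Naip6.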
